A study of Arabidopsis thaliana with 9 samples.

Results

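The outermost cell layer of the Arabidopsis shoot apical meristem, the L1, gives rise to the epidermis of the shoot, and it was followed here through 6 genes that are used as its markers. They were chosen by locus identifier: the transcription factors ATML1 (AT4G21750) and PDF2 (AT4G04890), the proline-rich protein gene PDF1 (AT2G42840), the wax and cuticle enzyme gene FDH (AT2G26250, also KCS10), the receptor kinase gene ACR4 (AT3G59420) and the lipid transfer protein gene LTP1 (AT2G38540). All 6 of the 23338 loci in the count table were found, and all 6 passed the filter on low counts that left 9300 genes for testing. The samples were shoot apical meristems of the Col-0 strain, cut out with a laser from plants kept at 8 h light and 16 h darkness a day (short days, LD0) and from plants then given 1 day (LD1) or 3 days (LD3) with 16 h light and 8 h darkness (long days), with 3 libraries (A, B and C) at each time point. The design covers the passage from a vegetative meristem to a transition meristem, before floral meristems form. All libraries came from amplified RNA copied with random primers. At every time point, A and B were prepared by the shotgun method and C as a ready-to-run library. The labels do not say whether libraries came from separate plants, so p-values measure the spread between libraries, which may be partly technical.

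ATML1 and PDF2 are closely related homeodomain-leucine zipper (HD-ZIP) class IV proteins that specify epidermal identity, and they bind an 8-base promoter element called the L1 box. PDF1 is a classic gene driven through an L1 box. ACR4 is a membrane kinase that acts in epidermal organisation and in asymmetric divisions. FDH (FIDDLEHEAD) belongs to the ketoacyl-CoA synthases, which lengthen fatty acids, including those of wax, and loss of FDH lets epidermal surfaces fuse. LTP1 is a small secreted protein of the epidermis that binds lipids.

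The L1 box, searched as TAAATGTA and TAAATGCA on both strands, was found within 1000 bases before the annotated start of 3 of the 6 genes in the RefSeq annotation of TAIR10.1. The L1 box is the element that ATML1 and PDF2 are known to bind, but these matches were found by their letters alone. The 50 bases around 1 match for each of these genes are shown on the strand of the gene, with the match in capitals.
ATML1, chr4:11554509-11554558, plus strand: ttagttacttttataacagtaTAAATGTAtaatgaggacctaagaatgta
PDF1, chr2:17828073-17828122, minus strand: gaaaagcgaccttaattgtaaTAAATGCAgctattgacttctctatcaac
FDH, chr2:11173304-11173353, minus strand: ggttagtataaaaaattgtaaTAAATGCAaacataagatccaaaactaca

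The match began 509 bases before the start of ATML1, 453 bases before that of PDF1 and 54 bases before that of FDH. PDF1 held a second TAAATGCA that began at base 31 of the annotated transcript. PDF2, ACR4 and LTP1 had no match in this window. Of all 27443 protein-coding genes, 15.8% had a match within 1000 bases before the start, and 5.1% had one between 250 bases before and 50 bases after it, a window in which 2 of the 6 genes, PDF1 and FDH, had one. A match of 8 letters is a description of the sequence and not evidence of binding. The genes lie at chr4:11555039-11560771 (ATML1), chr4:2476390-2482447 (PDF2), chr2:17826071-17827648 (PDF1), chr2:11170416-11173278 (FDH), chr3:21959646-21963180 (ACR4) and chr2:16130290-16131240 (LTP1) in TAIR10.1. The sources used here do not name the build to which the authors matched their reads, and these coordinates are those of the reference.

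The libraries held 97153 to 11145220 reads, and libraries LD0 A, LD0 B, LD1 A and LD3 A held no more than 124360 each. One read was therefore worth far more in these 4 libraries than in the others, and 3 reads corresponded to 28.5 scaled CPM (counts per 1000000 reads) in LD0 B but to 0.337 CPM in LD3 C. Counting intervals below are exact 95% Poisson or Clopper-Pearson intervals and cover counting error only. Where both ends of 1 fragment were counted, they understate the error. The 7 meristem markers together reached 493 to 748 CPM in LD0, 737 to 850 CPM in LD1 and 460 to 702 CPM in LD3. Of 7 trichome markers (GL1, GL3, GL2, TRY, CPC, ETC1 and MYB23), the summed level was at most 12.9 CPM in LD0 and 1.68 CPM in LD1, with 0 in 2 libraries of each, and was 2.14 to 7.80 CPM in LD3. The 8 stomatal lineage markers summed to at most 3.08 CPM in any library and to 0 in all 3 LD1 libraries. The 7 mesophyll markers ranged from 118 to 1350 CPM in sum and the 5 vascular markers from 0 to 635 CPM, and their part in the values below was not tested. Markers of trichomes and stomata were thus at or near 0 beside the L1 genes, whose 6 levels summed to 852 to 1390 CPM over the 9 libraries. In whole meristems, fewer L1 cells and less RNA per L1 cell cannot be told apart.

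PDF1 and LTP1 were the abundant genes of the set, and no change of either between the time points passed the test. PDF1 had 269, 655 and 392 CPM in LD0 libraries A, B and C, 580, 479 and 396 CPM in the LD1 libraries and 624, 549 and 348 CPM in the LD3 libraries. These levels lay between the 91.3 and 97.6 percentiles of the tested genes of each library. The 3 groups overlapped throughout, and the lowest and the highest value were both from LD0.

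The mean of PDF1 was 439 ± 197 CPM in LD0, 485 ± 91.8 CPM in LD1 and 507 ± 142 CPM in LD3 (SD, n = 3 each). In the edgeR quasi-likelihood fit, the log2 fold change of PDF1 was 0.13 in LD1 against LD0 (SE 0.50, adjusted p = 0.98) and 0.17 in LD3 against LD0 (SE 0.51, adjusted p = 0.973). The 95% interval of the second ran from -0.94 to 1.28, so a change of PDF1 by 2.43-fold upwards or to 0.523 of its LD0 level lay within the error. Without LD0 A, the library with the lowest PDF1 level, both values turned slightly negative.

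LTP1 had 421, 351 and 205 CPM in LD0 libraries A, B and C, 329, 305 and 223 CPM in the LD1 libraries and 523, 323 and 434 CPM in the LD3 libraries. The groups overlapped. LD3 A held the highest level and LD0 C the lowest. The means were 326 ± 111 CPM in LD0, 286 ± 56.0 CPM in LD1 and 427 ± 100 CPM in LD3 (SD, n = 3 each). The fitted change of LTP1 in LD1 against LD0 was -0.16 (log2, SE 0.52, edgeR adjusted p = 0.972). In LD3 it was 0.45 against LD0 (SE 0.52, edgeR adjusted p = 0.898) and 0.61 against LD1 (SE 0.52, edgeR adjusted p = 0.973). All 3 LD3 libraries exceeded the LD1 library of the same letter in LTP1, but LD3 B (323 CPM) lay below LD1 A (329 CPM).

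**Figure D1:**
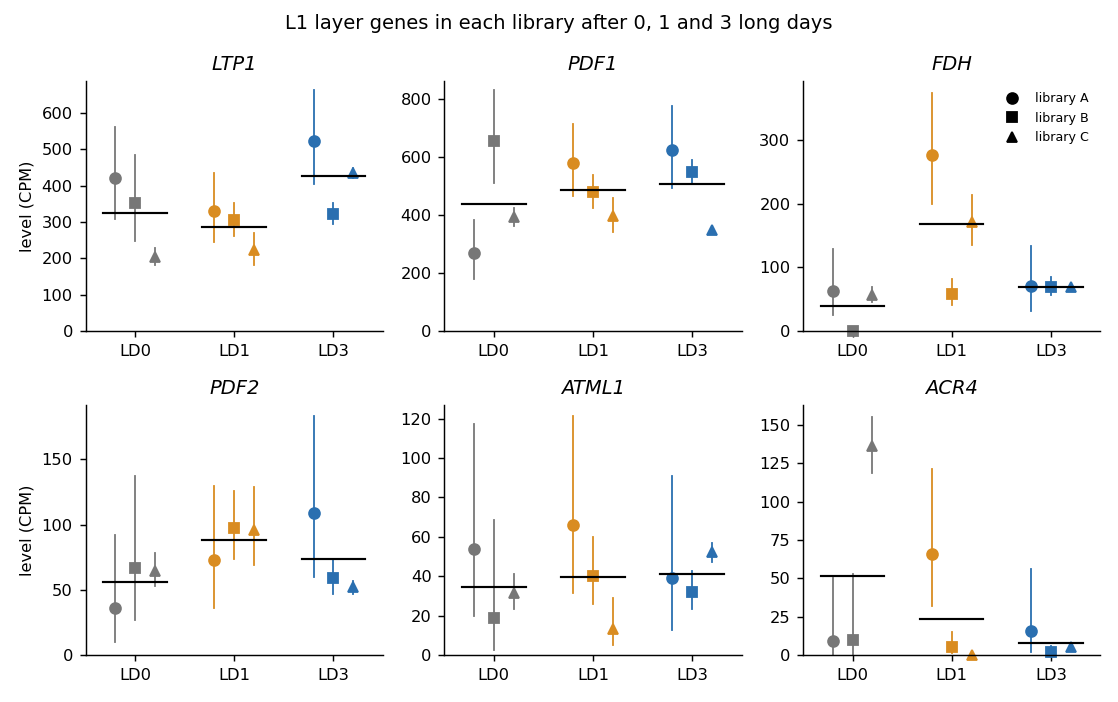
Scaled level in CPM (linear axis from 0, a separate scale in each panel) of the 6 L1 layer genes in each library at LD0, LD1 and LD3; symbols are libraries A, B and C, thin lines are counting intervals and the black line is the mean of the 3 libraries. PDF1 and LTP1 lie between 205 and 655 CPM in all libraries, whereas ACR4 is at 136 CPM in LD0 C and at or below 15.6 CPM in all but 2 libraries.

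The transcription factors ATML1 and PDF2 were read at lower levels than PDF1 and LTP1, in every library. PDF2 had 35.9, 66.5 and 64.7 CPM in LD0 libraries A, B and C, 72.5, 97.2 and 95.7 CPM in the LD1 libraries and 109, 58.9 and 51.7 CPM in the LD3 libraries. All 3 LD1 libraries lay above all 3 LD0 libraries in PDF2, while LD3 overlapped both. The narrowest gap was between LD1 A, with 11 reads, and LD0 B, with 7 reads. Their counting intervals were 36.2 to 130 CPM and 26.7 to 137 CPM, so this gap lay within counting error. This separation was seen in scaled CPM but not in CPM without scaling factors. The PDF2 means were 55.7 ± 17.2 CPM in LD0, 88.5 ± 13.9 CPM in LD1 and 73.3 ± 31.3 CPM in LD3 (SD, n = 3 each). The log2 fold change of PDF2 for LD1 against LD0 was 0.66 (SE 0.77, edgeR adjusted p = 0.914).

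ATML1 had 53.8, 19.0 and 31.4 CPM in LD0 libraries A, B and C, 65.9, 40.2 and 13.4 CPM in the LD1 libraries and 39.0, 31.9 and 52.1 CPM in the LD3 libraries. These values rested on 2 to 51 reads per library except in LD3 C, which had 463 reads. The highest and the lowest ATML1 level both came from LD1, and the groups overlapped. The ATML1 means were 34.7 ± 17.6 CPM in LD0, 39.8 ± 26.3 CPM in LD1 and 41.0 ± 10.2 CPM in LD3 (SD, n = 3 each). The fitted change of ATML1 was 0.08 in LD1 against LD0 (log2, SE 1.01, edgeR adjusted p = 0.991) and 0.29 in LD3 against LD0 (SE 0.98, edgeR adjusted p = 0.98), and each turned negative without LD3 C.

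ATML1 and PDF2 act redundantly in the epidermis, so their balance was also read directly. ATML1 gave 22.2% to 60% of the reads of the pair in the LD0 libraries, 12.2% to 47.6% in the LD1 libraries and 26.3% to 50.2% in the LD3 libraries. In LD3 C, the deepest library, the pair held 463 ATML1 reads and 460 PDF2 reads, a share for ATML1 of 50.2% with a counting interval of 46.9% to 53.4%. In LD1 C the share was 12.2% with an interval of 4.63% to 24.8%, below that of LD3 C. The 2 genes are paralogues, and the sources used here do not say how reads that match both were counted.

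FDH was highest in 2 of the LD1 libraries. It had 62.8, 0 and 56.7 CPM in LD0 libraries A, B and C, 277, 58.7 and 171 CPM in the LD1 libraries and 70.2, 70.0 and 70.0 CPM in the LD3 libraries. LD1 A and LD1 C stood above all other libraries, and LD1 B lay within the LD0 range. The absence of FDH reads from LD0 B still allows up to 28.5 CPM, the value of 3 reads there, which is the one-sided limit used for a count of 0. The near identity of the LD3 values was closer than their counting error, since the 9 reads of LD3 A give an interval of 32.1 to 133 CPM.

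The FDH means were 39.8 ± 34.6 CPM in LD0, 169 ± 109 CPM in LD1 and 70.1 ± 0.118 CPM in LD3 (SD, n = 3 each). The FDH log2 fold change for LD1 against LD0 was 2.06 (SE 1.05, 95% interval -0.23 to 4.36), the largest of the 6 genes in that comparison, with an edgeR adjusted p of 0.776. LD1 exceeded LD0 in FDH in 3 of 3 letters. The value was 1.31 without LD1 A and 1.57 without LD0 B. For LD3 against LD0 the FDH log2 fold change was 0.81 (SE 1.03, edgeR adjusted p = 0.905), and it was 0.27 without LD0 B and 1.49 without LD0 A. All 3 LD3 libraries lay above the LD0 libraries in scaled CPM, but not in CPM without scaling factors.

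ACR4 reads came mostly from a few libraries. It had 1, 1 and 221 reads in LD0 libraries A, B and C, 10, 3 and 0 reads in the LD1 libraries and 2, 3 and 46 reads in the LD3 libraries. In scaled terms the LD0 libraries were at 8.97, 9.50 and 136 CPM, the LD1 libraries at 65.9, 5.03 and 0 CPM, and the LD3 libraries at 15.6, 2.08 and 5.17 CPM. LD0 C and LD1 A were high and the other 7 libraries low, so the groups overlapped. LD0 C also had the highest summed level of 14 seed genes, at 98313 CPM, whereas LD1 A had 8497 CPM of them. LD0 A and LD1 B, with 1 and 3 ACR4 reads, had 75912.5 and 51544 CPM of the seed genes. The part of the seed genes in the ACR4 values was not tested.

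The ACR4 means were 51.6 ± 73.3 CPM in LD0, 23.6 ± 36.7 CPM in LD1 and 7.62 ± 7.08 CPM in LD3 (SD, n = 3 each). For LD3 against LD0 the ACR4 log2 fold change was -2.98, with an SE of 2.06 and a 95% interval from -7.50 to 1.54 (edgeR adjusted p = 0.792). Leaving out 1 library at a time moved it between -3.95 (without LD0 A) and -1.99 (without LD3 C). For LD1 against LD0 it was -0.93 (SE 2.17, edgeR adjusted p = 0.96), and it was 0.82 without LD1 C and -3.73 without LD1 A. Without LD0 C, ACR4 no longer passed the filter on low counts, so no fold change could be fitted.

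Across the 3 comparisons, none of the 6 genes passed the threshold of an edgeR adjusted p below 0.05 over all 9300 genes. The background was equally empty. The share of all tested genes called was 0% in LD1 against LD0, 0% in LD3 against LD0 and 0% in LD3 against LD1, so a count of 0 of 6 says little about the L1 genes in particular. For any change over the 3 time points, 0.0108% of the tested genes were called, and none of them was one of the 6. At an unadjusted p below 0.05, 0 of the 6 genes passed in any comparison, against 592, 737 and 379 of all tested genes. DESeq2 called 32, 299 and 9 genes and limma-voom 0, 508 and 0, and neither tool called any of the 6.

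The groups did not overlap for 1 of the 6 genes in LD1 against LD0 (PDF2), for 1 in LD3 against LD0 (FDH) and for 0 in LD3 against LD1. Among all tested genes, the groups did not overlap for 8.74%, 12.7% and 9.16% in these comparisons. The median change of the 6 genes (log2) was 0.11 in LD1 against LD0, beside -0.06 over all tested genes, and 0.32 in LD3 against LD0, beside 0.09. In LD3 against LD1 it was -0.14, beside 0.08. In the authors' deposited table, the log2 fold change of FDH for LD1 against LD0 was 1.98 with an unadjusted p of 0.197, and that of ACR4 for LD3 against LD0 was -3.22 with an unadjusted p of 0.0679.

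**Figure D2:**
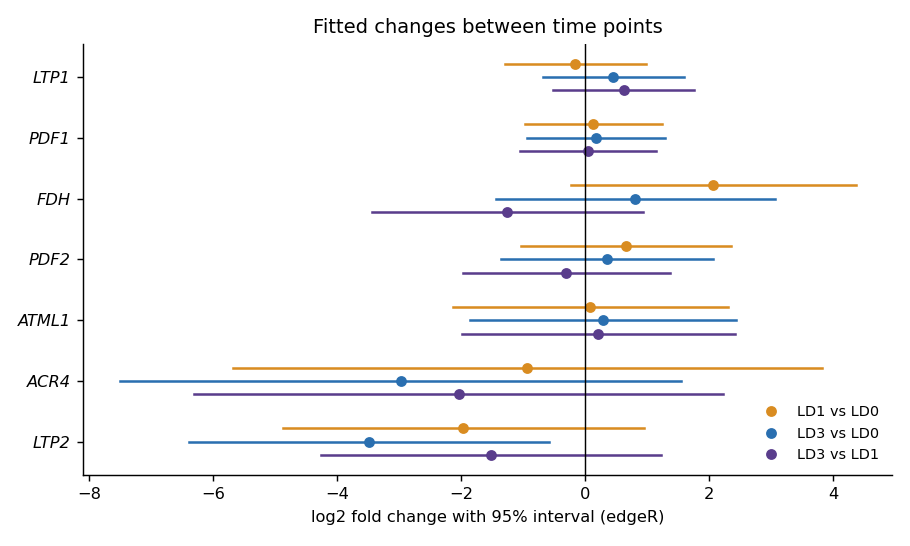
Fitted log2 fold change (x axis) with its 95% interval for the 6 L1 layer genes and LTP2 in the 3 comparisons between time points; points right of 0 are higher in the later time point. All intervals of the 6 genes include 0, those of PDF1 and LTP1 are the narrowest, and the LTP2 interval for LD3 against LD0 runs from -6.39 to -0.58.

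The spread of the 6 genes was read against that of all tested genes. The SD of log2 CPM over the 9 libraries was 0.43 for PDF1, 0.44 for LTP1, 0.49 for PDF2 and 0.70 for ATML1, whereas the median over all tested genes was 1.68. Only 0.935% of the tested genes had a smaller SD than PDF1, 0.968% a smaller one than LTP1, 1.78% a smaller one than PDF2 and 6.90% a smaller one than ATML1. FDH (SD 2.16) and ACR4 (SD 2.06) lay above the median, at the 77.4 and 71.8 percentiles. This SD includes counting error, and for FDH it includes the 0 of the shallow library LD0 B. The biological coefficient of variation of edgeR, which allows for counting error, was 0.792 for FDH, at the 35.2 percentile and below the median of 0.865, and 1.26 for ACR4, at the 91.3 percentile. On that measure PDF1, LTP1 and PDF2 stood at the 2.14, 1.89 and 8.70 percentiles and ATML1 at the 24.4 percentile. These ranks were taken over genes of all levels, and the median level of the tested genes was 40.1 CPM. The edgeR trend, which gives this coefficient for genes of like level, was 0.760 for PDF1, 0.774 for LTP1 and 0.870 for PDF2. The coefficients of these 3 genes were 0.577, 0.573 and 0.643. For ATML1 the coefficient was 0.738 beside a trend of 0.952, for FDH 0.792 beside 0.850 and for ACR4 1.26 beside 0.988.

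**Figure D3:**
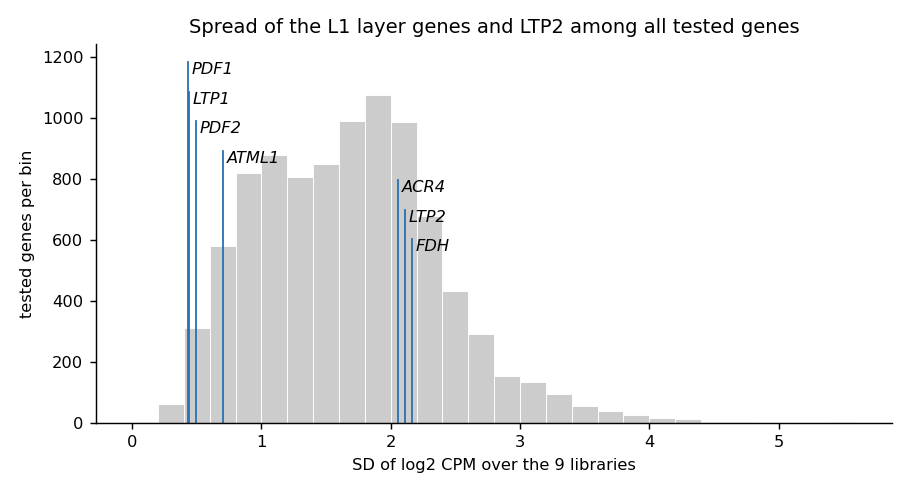
Number of tested genes (y axis) in bins of 0.2 of the SD of log2 CPM over the 9 libraries (x axis), with vertical lines at the L1 layer genes and LTP2; line heights carry no value. PDF1, LTP1 and PDF2 stand at the low edge with SDs of 0.43 to 0.49, while ACR4, LTP2 and FDH stand above the median of 1.68.

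Levels of different genes were compared per kb of coding length, and the order was LTP1, PDF1, FDH, PDF2, ATML1 and ACR4. The means over 9 libraries were 969 ± 284 CPM per kb for LTP1, 518 ± 145 for PDF1, 56.2 ± 49.5 for FDH, 32.5 ± 10.7 for PDF2, 16.8 ± 7.37 for ATML1 and 10.3 ± 16.9 for ACR4 (SD). Per kb of coding length LTP1 exceeded PDF1 in 9 of 9 libraries, with overlapping ranges, but per kb of annotated transcript it did so in 4 of 9, so the order of these 2 genes depends on the length used. The only step between neighbours without overlap was from PDF1, with a lowest value of 292 CPM per kb, to FDH, with a highest value of 167 CPM per kb. FDH exceeded PDF2 in 6 of 9 libraries, PDF2 exceeded ATML1 in 8 of 9 and ATML1 exceeded ACR4 in 8 of 9, with overlapping ranges at each of these steps. Thus the structural and secreted products LTP1 and PDF1 were read far above the regulators in every library.

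No pair of the 6 genes had levels whose correlation over the libraries passed the test. Among their 15 pairs, the highest Pearson r of log2 CPM was 0.61 for PDF2 with PDF1 (exact permutation p = 0.0772, adjusted p = 0.901, n = 9 libraries), with a Spearman rho of 0.62 (exact permutation p = 0.0857, adjusted p = 0.885). Without the 2 libraries farthest from the median of PDF2 this r was 0.06. This removal narrows the range of PDF2 and can lower r by itself, so it does not show that r rested on them. Such removals also raised values, since r of PDF1 with LTP1 was 0.11 over all libraries and 0.88 without the 2 farthest, and r of FDH with ACR4 was 0.02 and -0.67, so r over 9 libraries was unstable in either direction. For ATML1 with PDF2, r was -0.38 (exact permutation p = 0.322, adjusted p = 0.901) and rho was -0.25 (exact permutation p = 0.521, adjusted p = 0.885), over the same 9 libraries, and r was -0.28 without the 2 farthest.

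Among all tested genes, those with the pattern most like each L1 gene were found by Pearson r of log2 CPM over the 9 libraries, a description that shares depth and scaling between genes. These genes were picked as the highest of 9300, so their high r follows in part from that choice. They were EMB3114 (r = 0.96), AT5G40340 and AT3G10350 for ATML1, and PI-4KBETA1 (0.92), TPK2 and CHR4 for PDF2. For PDF1 they were AT4G36750 (0.95), ULT1 (0.94), a regulator that limits meristem size, and MHK. For FDH they were REV (0.97), an HD-ZIP class III regulator of upper leaf identity and meristem formation, AT4G32295 and AT1G06720. Spearman rho with FDH was 0.82 for REV but 0.33 for AT4G32295 and 0.33 for AT1G06720, and FDH had 0 reads in LD0 B. For ACR4 they were AT1G05720 (0.92), AT5G07980 and AT3G07010, and for LTP1 they were GATA17 (0.97), AT1G31300 and AT5G49210. By Spearman rho instead, 0 of these 3 genes stayed among the 3 most alike for ATML1, FDH and ACR4, 1 for PDF1 and LTP1, and 2 for PDF2.

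LTP1 and its paralogue LTP2 (AT2G38530) lie close together in the same orientation on chromosome 2, and their levels were set side by side. LTP2 had 35.9, 76.0 and 77.7 CPM in LD0 libraries A, B and C, 32.9, 36.9 and 2.23 CPM in the LD1 libraries and 0, 15.2 and 3.15 CPM in the LD3 libraries. All LD3 libraries lay below all LD0 libraries in LTP2, with or without scaling factors, and 3 reads in LD3 A, where LTP2 had 0, would have been 23.4 CPM. The LTP2 log2 fold change for LD3 against LD0 was -3.49 (SE 1.33), and its edgeR adjusted p of 0.565 missed the threshold. It was -2.17 without LD0 C. DESeq2 gave an adjusted p of 0.0269 and limma-voom one of 0.0454 for LTP2 in the same comparison, whereas LTP1 was not called by either.

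The share of LTP1 in the reads of the pair was highest in LD3. It gave 92.2%, 82.2% and 72.5% of them in LD0 libraries A, B and C, 90.9%, 89.2% and 99.0% in the LD1 libraries and 100%, 95.5% and 99.3% in the LD3 libraries. The mean share was 98.3% ± 2.42 in LD3 and 82.3% ± 9.83 in LD0 (SD, n = 3 each), and the LD3 libraries all lay above the LD0 libraries. An exact two-sided permutation test gave p = 0.1, the smallest value that 3 libraries against 3 allow. The 14 seed genes made up 1.94% to 7.79% of reads in LD0, 0.1% to 4.32% in LD1 and 0.0748% to 0.461% in LD3, and so lay higher in all LD0 libraries than in any LD3 library. Their part in the LTP2 values was not tested. Reads that match both paralogues could have been given to either.

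**Figure D4:**
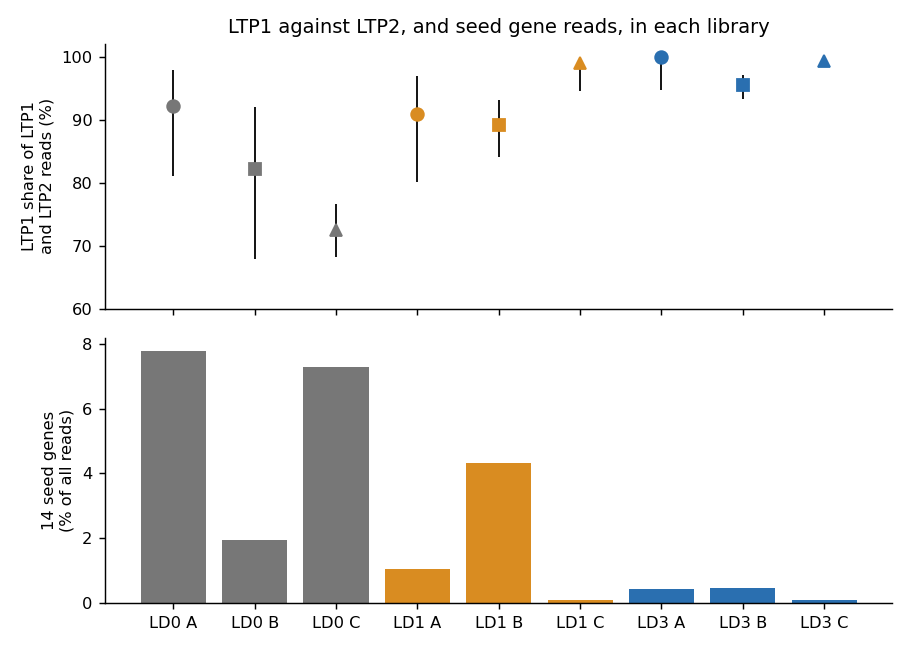
Upper panel, LTP1 share in percent of the reads of LTP1 and LTP2 in each library, with the exact binomial interval (axis from 60%); lower panel, reads of 14 seed genes as a percent of all reads of the library. The LTP1 share is 72.5% to 92.2% in the LD0 libraries and 95.5% to 100% in the LD3 libraries, and the seed gene share is at most 0.461% in LD3.

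Of 16 HD-ZIP class IV genes, 15 were in the table and 4 passed the filter. These were ANL2, known for anthocyanin in the subepidermal layer and for root cell layers, with 75.6 ± 47.6 CPM, PDF2, ATML1, and HDG1 with 17.4 ± 12.5 CPM (mean and SD over 9 libraries). None of the 4 passed the test in either direction. Their median log2 fold change was 0.36 in LD1 against LD0, beside -0.06 for all tested genes, and 0.32 in LD3 against LD0, beside 0.09. In LD3 against LD1 it was -0.025, beside 0.08. GL2, the family member that acts in trichomes and root hairs, had 6 reads in LD0 C and 0 in the other 8 libraries.

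Of 11 epidermal signalling genes, 10 were in the table and 3 were tested, with 0 called. ALE2, a receptor kinase that acts with ACR4 in making the protoderm, had 56.1 ± 46.0 CPM over the 9 libraries, and DEK1, the calpain needed for epidermal fate, had 54.1 ± 48.4 CPM. Unlike ACR4, both had higher means in LD3 than in LD0. The log2 fold changes were 0.58 (SE 1.18) for ALE2 and 1.34 (SE 1.08) for DEK1, which did not pass the test. In LD0 libraries A, B and C, ALE2 had 16, 1 and 19 reads and DEK1 had 9, 0 and 31. In LD1 against LD0 the fitted changes of all 3 tested genes, ACR4 included, were negative. CCR4, a relative of ACR4, had 30 reads in LD3 B, 1 in LD0 C and 0 elsewhere, and failed the filter.

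Of the 21 ketoacyl-CoA synthases, 17 were in the table and 8 were tested, with 0 called. The levels of FDH (92.9 ± 81.8 CPM), KCS2 (87.1 ± 71.0 CPM), KCS9 (77.3 ± 45.8 CPM) and KCS6 (44.9 ± 22.1 CPM), the last the main wax synthase of shoots, were within one another's spread over the 9 libraries. KCS20, named here after its values were seen, had 69.8 ± 16.1 CPM in LD1 and 16.5 ± 11.8 CPM in LD0 (SD, n = 3 each), a log2 fold change of 2.42 (SE 1.06, edgeR adjusted p = 0.772). In LD1 against LD0, 1 of the 8, KCS20, was below an unadjusted p of 0.05, beside 6.37% of all tested genes, and 0 of the 8 were in the other comparisons, beside 7.92% and 4.08%. The median log2 fold change of the 8 genes, FDH included, was 0.36 for LD1 against LD0, beside -0.06 for all tested genes. It was 0.85 for LD3 against LD0, beside 0.09. For LD3 against LD1 it was -0.45, beside 0.08, with 3 of the 8 higher and 5 lower.

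Of 34 cuticle genes, 30 were in the table and 18 were tested, with 0 called. The highest mean was that of LTPG1, a lipid transfer protein anchored to the cell surface that serves wax export, with 675 ± 435 CPM over the 9 libraries. PAS2, the dehydratase of fatty acid elongation, had 113 ± 62.4 CPM, and DCR, an acyltransferase of cutin formation, had 68.9 ± 33.7 CPM. BDG1, an extracellular hydrolase needed for the cuticle, had 145 ± 123 CPM in LD3 and 18.4 ± 9.94 CPM in LD0 (SD, n = 3 each). Its log2 fold change of 3.04 (SE 1.09) had an edgeR adjusted p of 0.56, and it was 1.87 without LD3 C. BDG1 was 1 of the 18 below an unadjusted p of 0.05 in LD3 against LD0, where 7.92% of all tested genes were. CER3, needed for wax alkane formation and named after its values were seen, had 67.3 ± 20.7 CPM in LD0, 11.4 ± 7.75 CPM in LD1 and 81.5 ± 77.9 CPM in LD3 (SD, n = 3 each). It was 1 of the 18 below an unadjusted p of 0.05 in LD1 against LD0 and in LD3 against LD1, where 6.37% and 4.08% of all tested genes were, with log2 fold changes of -2.57 (SE 1.09, edgeR adjusted p = 0.772) and 2.68 (SE 1.14, edgeR adjusted p = 0.973). For LD3 against LD0, 12 of the 18 were higher and 6 lower, with a median of 0.18 beside 0.09 for all genes. For LD1 against LD0, 7 were higher and 11 lower, with a median of -0.18 beside -0.06. For LD3 against LD1, 14 were higher and 4 lower, with a median of 0.50 beside 0.08.

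Of 10 lipid transfer protein genes, 7 were in the table and 5 were tested, with 0 called. LTP6 had the highest level of any gene in these lists, with 1185 ± 289 CPM in LD0, 1471 ± 999 CPM in LD1 and 2523 ± 1845 CPM in LD3 (SD, n = 3 each), and LTP10 had 128 ± 79.2 CPM over the 9 libraries. LTP4, named after its values were seen, had 0, 0 and 43 reads in LD3 libraries A, B and C and 10, 19 and 0 reads in the LD1 libraries, with a log2 fold change of -5.39 (edgeR adjusted p = 0.973). Of the 5 tested, 3 were higher and 2, LTP2 and LTP4, were lower in LD3 than in LD0.

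**Figure D5:**
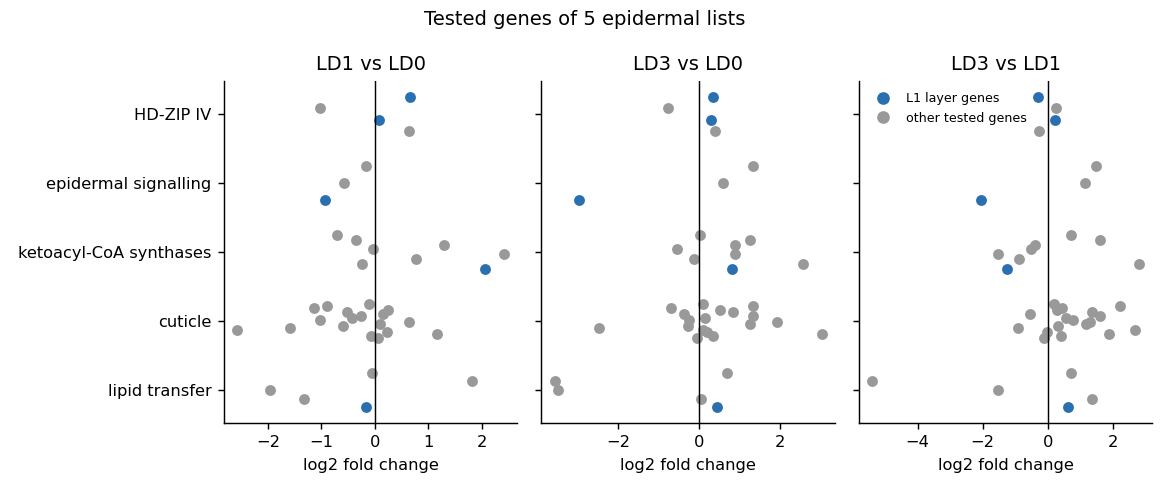
Fitted log2 fold changes (x axis) of the tested genes of 5 epidermal lists in 3 comparisons, with the L1 layer genes in blue and the others in grey; vertical offsets within a list only keep points apart, and genes on more than 1 list appear in each. No point passed the adjusted threshold of edgeR, and points lie on both sides of 0 in most lists.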

How the data were processed

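The authors deposited read counts per locus in 16 columns for 9 libraries, and 3 tables of comparisons with a log2 fold change and an unadjusted p-value per locus, for which the submitters' processing notes name edgeR. BLASTN 2.2.21 or 2.2.13 matched the reads, per the file headers, and 7 libraries had a column for each of 2 reads. Among the A libraries these features differed by time point. LD0 A and LD3 A had 1 column each, matched by version 2.2.21, whereas LD1 A had 2 columns, matched by version 2.2.13. The part of the BLASTN version in the values was not tested. All columns of 1 library were added up, and empty cells (49.0%) were read as 0. The sources used here do not give the genome build, the use of strand or the handling of reads that match several loci.

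The test was that of edgeR 4.0.16 (R 4.3.3) on the summed counts (quasi-likelihood F test, TMM factors, filterByExpr with a minimum count of 10, time point and library preparation as additive terms, all 9 libraries, 5 residual degrees of freedom). The p-values were adjusted by Benjamini-Hochberg over all 9300 genes tested, and the scripts were tested on simulated data. Levels are CPM scaled by the same factors, and log2 CPM used a prior count of 2. DESeq2 1.42.0 and limma-voom (limma 3.58.1) were alternatives, with the scalings, filters and subsets named in the closing section. The common biological coefficient of variation was 0.898, the median SE of a log2 fold change was 1.23 to 1.28, and the preparation term called 78 genes.

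The 6 genes and all lists were chosen with earlier results of these data known. Of each other epidermal list, the up to 4 genes with the highest mean CPM and any called gene were named, and the 3 genes with the highest Pearson r for each of the 6.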

Additional observations from a re-analysis of the deposited data

How the results depend on the processing

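For the 6 L1 genes, 18 log2 fold changes were refitted in 336 combinations with alternatives. None passed the threshold (smallest adjusted p 0.0781, ACR4 in LD3 against LD0 by limma-voom). The direction held in 307 and reversed in 29, all in 11 fold changes. For LD1 against LD0, ATML1 was -0.0079 with RLE scaling, -0.039 with a minimum count of 30 and -0.029 by DESeq2, and PDF1 was -0.0042 with a minimum count of 30, -0.011 in libraries A and B alone, -0.095 with the first read column alone and -0.17 with thinned libraries; LTP1 was 0.11 by limma-voom. For LD3 against LD0, limma-voom gave -0.14 for PDF2, libraries A and B alone gave -0.11 for LTP1, and PDF1 was -0.073 with RLE scaling and -0.078 by DESeq2. For LD3 against LD1, PDF1 was -0.15 with RLE scaling and -0.15 by DESeq2, and -0.0205 by limma-voom. For LTP2, LTP4, KCS20, BDG1 and CER3 the alternatives were added after seeing the data, and only LTP2 (DESeq2 and limma-voom) and BDG1 (limma-voom, adjusted p = 0.0473), both in LD3 against LD0, passed the threshold in any. LTP4 was -1.28 by limma-voom in LD1 against LD0. CER3 in LD3 against LD0 was -0.15 with RLE scaling and by DESeq2, -0.022 with a minimum count of 30, -0.26 with the first read column alone, and -1.13 to 0.67 without 1 library at a time.

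Without 1 library at a time, the LD1 against LD0 values ranged from -0.36 to 0.66 for ATML1, -0.15 to 0.51 for PDF1, -3.73 to 0.82 for ACR4 and -0.39 to 0.033 for LTP1. The LD3 against LD0 values ranged from -0.39 to 0.58 for ATML1 and -0.16 to 0.55 for PDF1. The LD3 against LD1 values ranged from -0.39 to 0.67 for ATML1, -0.031 to 0.19 for PDF1 and -3.30 to 0.99 for ACR4. The cause of these turns was not tested.

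The counts of genes called in LD1 against LD0, LD3 against LD0, LD3 against LD1 and the joint test (0, 0, 0 and 1) were 107, 367, 186 and 433 without a filter, where 23312 genes were tested, 32, 299, 9 and 35 by DESeq2, and 0, 508, 0 and 41 by limma-voom. With upper-quartile scaling 1 gene was called in LD3 against LD0. In the joint test RLE scaling and a minimum count of 30 called 2 each, and libraries A and B alone, the first read column alone and thinned libraries called 0. Without 1 library, 0 to 1 genes were called in LD3 against LD0 and 0 to 2 in the joint test. The library letters were not taken as pairs in the main fit. Correlations of deviations within a letter ran from 0.073 to 0.352, and each exceeded those between letters (at most 0.040). Libraries of the same letter were thus more alike than others, which the preparation term does not cover for A against B. With a replicate block by letter, 2 genes were called in LD3 against LD0 and 2 in the joint test. FDH was then 2.12 in LD1 against LD0 and 1.29 in LD3 against LD0, beside 2.06 and 0.81 in the main fit. ACR4 in LD1 against LD0 was -1.87 with the block, beside -0.93. The block changed no call of the 6 genes, but none was called without it, so this says little about the pairing. ACR4 could not be fitted where it failed the filter, and with the first read column alone or thinned libraries fewer genes could be tested. Scaling moved the median log2 fold change of all genes in LD3 against LD0 from 0.09 to 0.30 (upper-quartile) and -0.18 (RLE). In libraries LD0 A, LD0 B, LD1 A and LD3 A, 3 reads were worth 19.8 to 28.5 CPM. Lower levels there rested on fewer than 3 reads, and a count of 0 does not exclude them.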
